A study of Mus musculus with 10 samples.

Results

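The genes described here carry the breakdown of the branched-chain amino acids leucine, isoleucine and valine from mitochondrial entry to the steps specific to leucine. They are the mitochondrial carrier Slc25a44, the transaminase Bcat2, the dehydrogenase genes Bckdha, Bckdhb and Dbt, the kinase Bckdk, the phosphatase Ppm1k, and the leucine enzymes Ivd, Mccc1 and Mccc2. They were chosen by name and function, and all 10 were measured among the 19659 genes of the series, each by 1 probe set. The study hybridised 10 one-colour arrays, 1 for each of 10 female F2 mice, with RNA of the subcutaneous fat depot of the groin and thigh (inguinal-femoral white fat). The mice were 14 weeks old, untreated and fed chow. The F2 mice descended from a cross of the Fat line with the congenic V line, which carries another allele of the obesity locus Fob3a after repeated backcrossing to the Fat line. FF mice (Fat/Fat) were homozygous for the Fat-line allele at Fob3a and VV mice (V/V) for the V-line allele, which the labels also call the Lean-line allele, with 5 mice in each group. The alleles differ over a chromosomal segment and not in 1 known gene, which limits what either group models. The values are normalised log2 intensities, and a difference of 1 between groups is a doubling of intensity.

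Branched-chain amino acids enter mitochondria through SLC25A44 and lose their amino group to BCAT2, which leaves branched-chain keto acids. The branched-chain keto acid dehydrogenase complex, BCKDH, then decarboxylates these in the step that commits them to breakdown; BCKDK phosphorylates the E1 alpha subunit and slows the complex, and PPM1K removes that phosphate. Isovaleryl-CoA dehydrogenase and the biotin-containing methylcrotonyl-CoA carboxylase carry leucine further towards acetyl-CoA and acetoacetate. Adipocytes break these amino acids down as they differentiate and use their carbon for lipid synthesis, and brown adipocytes also oxidise them during heat production.

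Adipocyte RNA was borne out by Adipoq, the adipocyte hormone adiponectin, which averaged 13.34 in FF and 13.38 in VV. This gene alone does not identify the labelled depot. Array medians lay between 7.15 and 7.17 in FF and between 7.18 and 7.21 in VV. RNA of other tissues differed between mice. The score of 11 measured liver genes, their mean after centring each gene over the 10 mice, was 3.54 in VV replicate 1 and 0.53 in VV replicate 2, against -0.74 to -0.20 in the other 8 mice. The score of 10 skeletal muscle genes was 2.15 in FF replicate 1, against -0.55 to 0.36 in the other 9. None of these liver and muscle genes passed an adjusted p of 0.05 between the groups in limma, a linear model fitted to every gene, and 0 had an unadjusted p under 0.05. Liver and muscle both express genes of this pathway, and values without some of these mice are given below.

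Of the 10 genes, 3 rose in FF fat and none fell: Bckdha by 1.52-fold, Slc25a44 by 1.49-fold and Bckdk by 1.33-fold. The threshold was an adjusted p of 0.05 in limma over all 19659 genes, which 0.753% of all genes passed in either direction and 0.621% passed as higher in FF. The other 7 did not pass it; their differences ran from -0.08 for Ppm1k to 0.35 for Bcat2. At an unadjusted p under 0.05, 6 of the 10 were higher in FF and 0 were lower, where 10.2% of all genes were higher and 6.18% were lower. Of the 10 differences 9 were positive, against 50.3% of all genes, and their median was 0.24 on the log2 scale against 0.00 for all genes. Every FF mouse lay above every VV mouse for 3 of the 10, the same 3 that rose, where 3.36% of all genes had that order. In whole fat, a higher share of cells that express a gene and more of its RNA per cell cannot be told apart. With 1 mouse left out, the count of 3 stayed at 3 for FF replicate 3, fell to 2 for VV replicates 1 and 3, to 1 for FF replicates 1, 2, 4 and 5 and VV replicates 4 and 5, and to 0 for VV replicate 2, where 6 of the 10 had an unadjusted p under 0.05 in limma. It was 1 without FF replicate 1 and VV replicate 1 together and 0 without VV replicates 1 and 2 together, where 7 had an unadjusted p under 0.05.

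**Figure D1:**
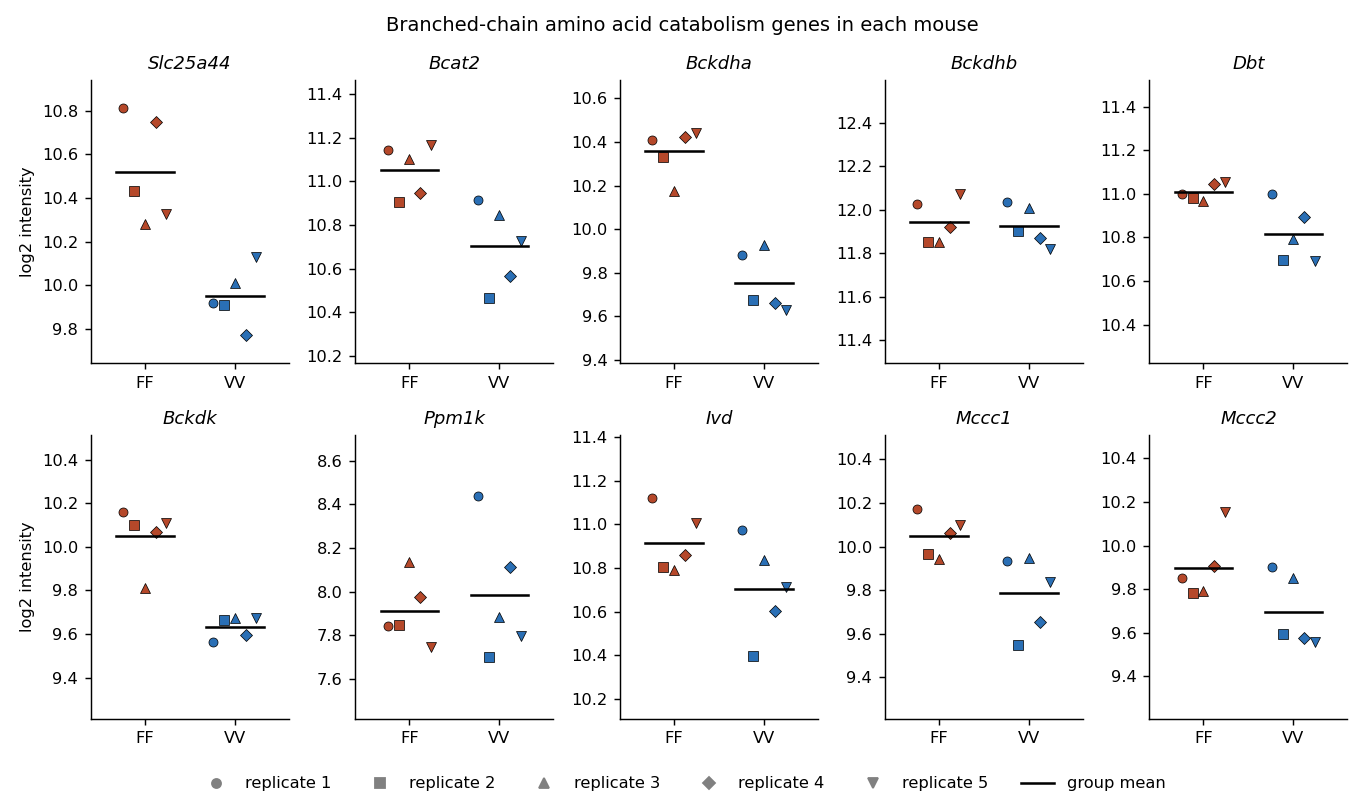
Log2 intensity of each of the 10 genes in each mouse, with FF on the left and VV on the right of each panel; symbols mark the replicate numbers, black lines are group means, and every panel spans 1.3 log2 units. Bckdha, Slc25a44 and Bckdk are the genes whose FF and VV mice do not overlap.

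Slc25a44, the mitochondrial carrier of branched-chain amino acids, was 10.81, 10.43, 10.28, 10.75 and 10.33 in FF replicates 1 to 5. In VV replicates 1 to 5 it was 9.92, 9.91, 10.01, 9.77 and 10.13. FF replicates 1 and 4 stood highest, and the lowest FF mouse, replicate 3, still lay above the highest VV mouse, replicate 5. FF averaged 10.52 ± 0.24 and VV 9.95 ± 0.13 (SD, n = 5 for both), a difference of 0.57 ± 0.11 (SE). The limma adjusted p was 0.0483, just inside the threshold. It was 0.0281 without FF replicate 3 and past the threshold in no other fit that left out 1 mouse, where it ran from 0.0579 without VV replicate 1 to 0.112 without VV replicate 2; with FF replicates 1, 2, 4 and 5 left out in turn it was 0.10, 0.104, 0.0919 and 0.0646, and with VV replicates 3, 4 and 5 left out it was 0.0808, 0.108 and 0.0652. The difference stayed between 0.50 and 0.63 in these fits. After quantile normalisation the adjusted p was 0.0635.

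Bcat2, the mitochondrial transaminase that makes the keto acids, was 11.15, 10.90, 11.11, 10.95 and 11.17 in FF replicates 1 to 5 and 10.92, 10.46, 10.84, 10.57 and 10.73 in VV replicates 1 to 5. The groups overlapped through VV replicate 1, which lay just above FF replicate 2, while the other 4 VV mice lay below every FF mouse. The difference was 0.35 ± 0.09 (SE), with a 95% interval from 0.15 to 0.55, and did not pass in limma (adjusted p = 0.0902). Without VV replicate 1, the mouse with the highest liver score, the difference was 0.40 (limma adjusted p = 0.0582). Whether liver RNA had a part in the overlap was not tested.

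The subunits of the dehydrogenase complex had unlike differences. Bckdha encodes the E1 alpha subunit, which carries the phosphorylation sites of the complex, and Bckdhb the E1 beta subunit, its partner in the decarboxylase. Dbt encodes the E2 core, which passes the acyl group to coenzyme A. Bckdha was 10.41, 10.33, 10.18, 10.42 and 10.44 in FF replicates 1 to 5 and 9.88, 9.68, 9.93, 9.66 and 9.63 in VV replicates 1 to 5. All 5 FF mice stood above all 5 VV mice, and the nearest to each other were FF replicate 3 and VV replicate 3. The difference was 0.60 ± 0.08 (SE; 95% interval 0.44 to 0.77), with an adjusted p of 0.0179 in limma, rank 7 by p among all genes. Without VV replicate 2 it was 0.58 with an adjusted p of 0.0585, short of the threshold; leaving out any other mouse kept it past it, at 0.00667 to 0.0470. Without FF replicate 1 and VV replicate 1 together it was 0.62 (adjusted p = 0.0331). Without VV replicates 1 and 2 together it was also 0.62 but did not pass (limma adjusted p = 0.0592). With a block for the replicate number the limma adjusted p was 0.143.

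Bckdhb was 12.03, 11.85, 11.85, 11.92 and 12.07 in FF replicates 1 to 5 and 12.03, 11.90, 12.01, 11.87 and 11.82 in VV replicates 1 to 5. The groups overlapped over nearly their whole range. The difference was 0.02 with a 95% interval from -0.12 to 0.15 (limma adjusted p = 0.925), so an increase as large as that of Bckdha lay outside the interval. Its sign turned when FF replicate 1, FF replicate 5 or VV replicate 5 was left out, and after quantile normalisation, where it lay between -0.0146 and -0.0002. Dbt was 11.00, 10.98, 10.97, 11.04 and 11.05 in FF replicates 1 to 5 and 11.00, 10.69, 10.79, 10.89 and 10.69 in VV replicates 1 to 5. Only VV replicate 1 reached the FF range, in which the 5 mice stood close together. The difference was 0.19 ± 0.06 (SE; limma adjusted p = 0.148), and 0.24 without VV replicate 1 (adjusted p = 0.0675). Dld, the E3 subunit that BCKDH shares with the pyruvate and oxoglutarate complexes, differed by 0.32 (adjusted p = 0.230), a value known before the gene was picked for its place in the complex.

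The unequal differences of the E1 partners can also be read from the 2 genes compared within each mouse. The difference Bckdha minus Bckdhb was -1.62, -1.52, -1.67, -1.50 and -1.63 in FF replicates 1 to 5 and -2.15, -2.23, -2.08, -2.21 and -2.19 in VV replicates 1 to 5. The FF mean lay 0.59 above the VV mean, with an SD of 0.08 in FF and 0.06 in VV, and the groups were far apart. The size of this shift follows from the differences of the 2 genes given above and is no further result. This pair was chosen after its values were seen, so no test is given. The intensities of 2 probe sets do not compare the amounts of 2 RNAs, and only the shift between genotypes can be read.

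The stretches before the start sites of Bckdha, Bckdhb and Bckdk are shown because these genes encode partners of 1 complex that differed in response, the E1 alpha subunit and the kinase rising while E1 beta did not pass. Each is the 250 bases upstream of a RefSeq start site on GRCm38.p6, written 5′ to 3′ on the gene's strand, and for Bckdhb the first of its 2 listed starts. Capitals mark letters of any of 5 motifs searched on both strands.
Bckdha, chr7:25658762-25659011, minus strand: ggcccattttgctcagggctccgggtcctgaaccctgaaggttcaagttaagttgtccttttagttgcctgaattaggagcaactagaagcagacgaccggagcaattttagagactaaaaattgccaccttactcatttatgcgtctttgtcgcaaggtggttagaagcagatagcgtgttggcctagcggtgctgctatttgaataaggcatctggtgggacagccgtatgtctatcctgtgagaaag
Bckdhb, chr9:83924887-83925136, plus strand: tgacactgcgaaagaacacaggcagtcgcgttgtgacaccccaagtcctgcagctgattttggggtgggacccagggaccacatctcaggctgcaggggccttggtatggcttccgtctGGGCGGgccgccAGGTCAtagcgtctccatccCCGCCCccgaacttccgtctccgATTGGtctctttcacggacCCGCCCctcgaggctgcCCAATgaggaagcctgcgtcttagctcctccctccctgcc
Bckdk, chr7:127903823-127904072, plus strand: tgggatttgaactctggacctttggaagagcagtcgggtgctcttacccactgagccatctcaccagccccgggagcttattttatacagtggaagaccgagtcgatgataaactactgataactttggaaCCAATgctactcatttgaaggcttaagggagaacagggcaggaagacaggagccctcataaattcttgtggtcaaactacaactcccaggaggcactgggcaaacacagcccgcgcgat
The motifs were the GC box GGGCGG, the CCAAT box CCAAT, the E box CACGTG, the nuclear receptor motif AGGTCA and the NRF1 core TGCGCA. Among 32851 RefSeq windows of this length, 32.7% held the GC box, 33.8% the CCAAT box, 6.02% the E box, 14.0% the nuclear receptor motif and 6.43% the NRF1 core. The Bckdhb window shown held 3 GC boxes, 2 CCAAT boxes and 1 nuclear receptor motif, none of them overlapping, and its GC content was 63.2%, against a median of 52.4% over all windows. The window of the other Bckdhb start held 0 of the motifs and 36.4% GC, so the contrast with Bckdha depended on the start shown. The Bckdha window held none of these letters and 47.6% GC, and the Bckdk window held 1 CCAAT box and 50.0% GC. RefSeq windows were matched for 8 of the 10 genes, in 10 windows, of which 3 held a GC box, 6 a CCAAT box, 1 an E box, 2 a nuclear receptor motif and 0 the NRF1 core. Binding was not measured, and a match or its absence describes letters alone.

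Of the pair of enzymes that switch the complex, the kinase rose and the phosphatase did not pass. Bckdk, which inhibits the complex by phosphorylating E1 alpha, was 10.16, 10.10, 9.81, 10.07 and 10.11 in FF replicates 1 to 5. In VV replicates 1 to 5 it was 9.56, 9.67, 9.67, 9.59 and 9.67. FF replicate 3 stood apart from the other FF mice but above every VV mouse, and the VV mice lay close together. The difference was 0.42 ± 0.07 (SE; 95% interval 0.27 to 0.56), with an adjusted p of 0.0334 in limma. It was 0.00370 without FF replicate 3. The call was lost with any of FF replicates 1, 2, 4 and 5 left out (adjusted p = 0.0898, 0.0895, 0.0552 and 0.0636), with any of VV replicates 2, 4 and 5 left out (0.0806, 0.0747 and 0.0630), and without FF replicate 1 and VV replicate 1 together (0.0864), while the difference stayed between 0.37 and 0.48 in all of these fits.

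Ppm1k, the mitochondrial phosphatase that reactivates the complex, was 7.84, 7.85, 8.14, 7.98 and 7.74 in FF replicates 1 to 5 and 8.44, 7.70, 7.88, 8.11 and 7.79 in VV replicates 1 to 5. The highest and the lowest mouse were both VV, so the FF range lay inside the VV range. The difference was -0.08 with a 95% interval from -0.37 to 0.21 (limma adjusted p = 0.823), the widest interval among the 10 genes. The highest was VV replicate 1, the mouse with the highest liver score, and without it the difference turned to 0.04. Without VV replicate 2 the difference was -0.15. Whether liver RNA had a part in these values was not tested.

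Within a mouse, Bckdk minus Ppm1k was 2.32, 2.25, 1.68, 2.09 and 2.37 in FF replicates 1 to 5 and 1.13, 1.97, 1.79, 1.48 and 1.88 in VV replicates 1 to 5. FF replicate 3 lay below 3 of the VV mice, and the other 4 FF mice lay above all VV mice. FF averaged 2.14 ± 0.28 and VV 1.65 ± 0.35 (SD, n = 5 for both), a shift of 0.49 towards the kinase. A two-sided exact permutation test over all assignments of mice to groups gave p = 0.0397, where the smallest possible p is 0.00794. The test was chosen with earlier results of these data known, so its p is not independent support for a shift. Whether p lay under 0.05 depended on single mice, while the shift ran from 0.36 to 0.61 with 1 mouse left out. The shift was 0.36 without VV replicate 1 (exact p = 0.0794) and 0.32 without FF replicate 1 and VV replicate 1 (exact p = 0.143). It also missed 0.05 with any of FF replicates 1, 2, 4 and 5 left out (exact p = 0.0873, 0.0873, 0.0714 and 0.0873), and with VV replicate 3 or 4 left out (exact p = 0.0556 and 0.0635), at shifts from 0.44 to 0.53.

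**Figure D2:**
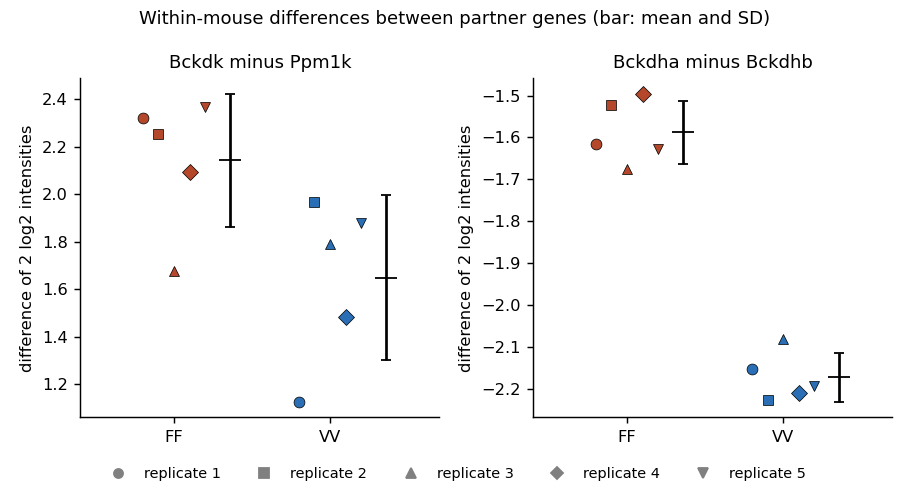
Difference between the log2 intensities of partner genes in each mouse, Bckdk minus Ppm1k on the left and Bckdha minus Bckdhb on the right; bars give the group mean and SD and symbols the replicate numbers. FF and VV overlap on the left, where FF replicate 3 is at 1.68, and are apart on the right.

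The leucine enzymes all had positive differences that did not pass in limma. Ivd, the isovaleryl-CoA dehydrogenase, ran from 10.79 to 11.12 in FF, with a median of 10.86, and from 10.40 to 10.97 in VV, with a median of 10.71, and differed by 0.21 (adjusted p = 0.354). With FF replicate 1, VV replicate 1 and VV replicate 2 left out in turn, its difference was 0.16, 0.28 and 0.14 (limma adjusted p = 0.517, 0.183 and 0.557). Mccc1, the biotin-bearing subunit of methylcrotonyl-CoA carboxylase, was 10.17, 9.96, 9.94, 10.06 and 10.10 in FF replicates 1 to 5 and 9.93, 9.55, 9.95, 9.66 and 9.84 in VV replicates 1 to 5. Its groups met at FF replicate 3 and VV replicate 3, and the difference was 0.26 ± 0.08 (SE; adjusted p = 0.142). Mccc2, the other subunit of that carboxylase, ran from 9.78 to 10.16 in FF and from 9.56 to 9.90 in VV and differed by 0.20 (adjusted p = 0.306). FF replicate 5 was highest in Mccc2, and VV replicates 1 and 3 lay within the FF range. With the same mice left out in turn, the difference was 0.23, 0.30 and 0.20 for Mccc1 and 0.21, 0.25 and 0.18 for Mccc2. The 95% intervals were -0.02 to 0.44 for Ivd, 0.08 to 0.45 for Mccc1 and -0.00 to 0.40 for Mccc2.

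**Figure D3:**
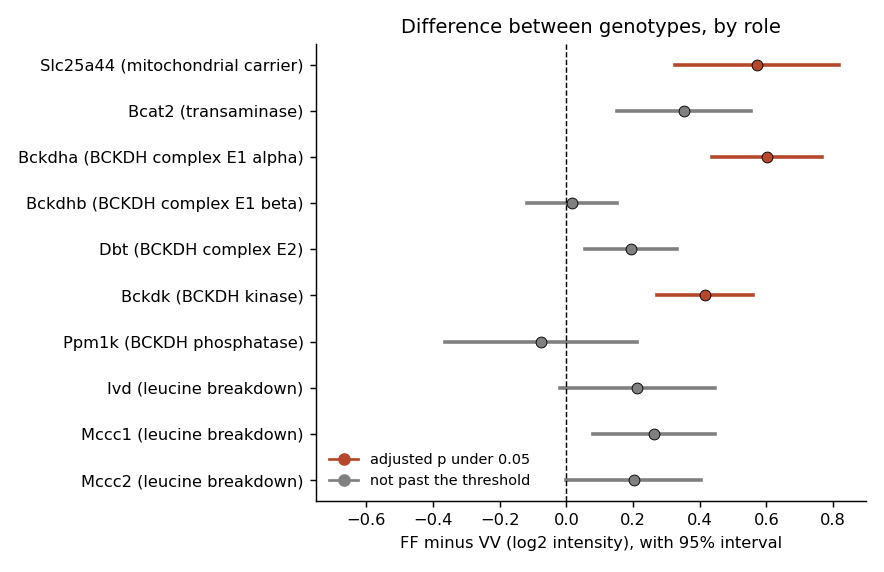
FF minus VV difference in log2 intensity for each gene, ordered by role, with the 95% interval from limma; coloured genes passed an adjusted p of 0.05. Bckdha, at 0.60, and Slc25a44, at 0.57, lie farthest to the right, while the intervals of Bckdhb, Ppm1k, Ivd and Mccc2 include 0.

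The same mice tended to be low or high across the genes. Among FF mice, replicate 3 was the lowest for 7 of the 10 genes, and replicate 5 was the highest for 5. Among VV mice, replicate 1 was the highest for 6, and replicates 2 and 5 were the lowest for 4 each. The mean of the 10 genes, each centred over the 10 mice, ran from 0.05 in FF replicate 3 to 0.22 in FF replicate 1. In VV it ran from -0.28 in replicate 2 to 0.02 in replicate 1, so the order of the groups held but FF replicate 3 and VV replicate 1 were close.

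**Figure D4:**
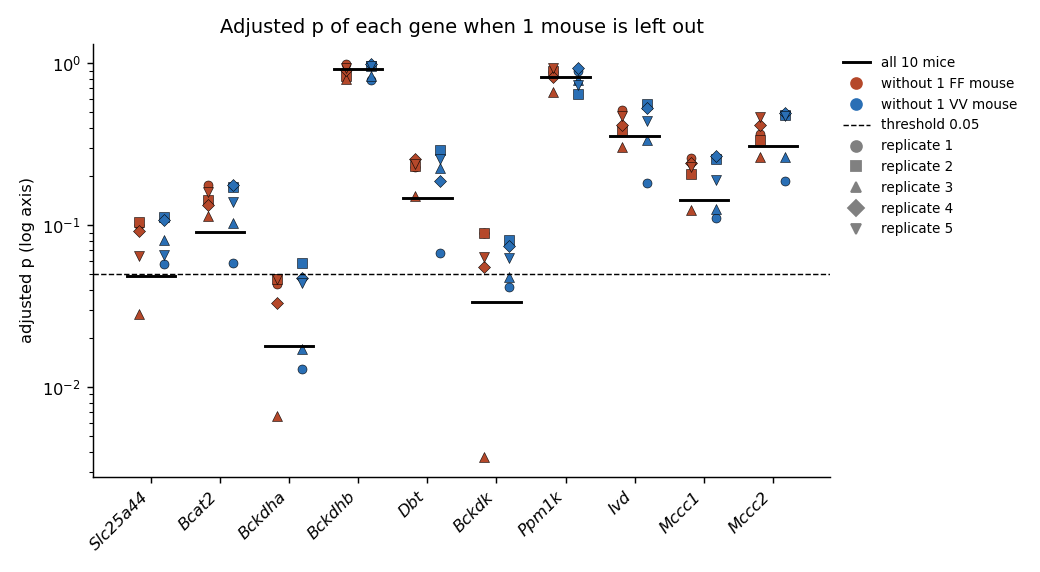
Adjusted p of each gene over all genes, on a log axis, with all 10 mice (black line) and with each mouse left out (symbols by replicate number, coloured by the group of the mouse left out); the dashed line is the threshold of 0.05. Bckdha stays below the line in 9 of 10 fits, Bckdk in 3 and Slc25a44 in 1, and leaving out FF replicate 3 gives the lowest value for these 3 genes.

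The remaining enzymes of branched-chain breakdown, 18 measured of 19 listed, included 0 past the limma threshold over all genes; 12 were higher and 1 was lower at an unadjusted p under 0.05. Their median difference was 0.21, and 16 of 18 were positive. Pccb, the beta subunit of the propionyl-CoA carboxylase that receives the end products of valine and isoleucine, differed by 0.38 (adjusted p = 0.0821), and Echs1, the short-chain enoyl-CoA hydratase, by 0.46 (adjusted p = 0.128). Pccb ran from 10.04 to 10.51 in FF and from 9.72 to 10.06 in VV, overlapping only where FF replicate 3 met VV replicate 1. The negative differences, singled out after their values were seen, were those of Oxct1, which activates acetoacetate for use as fuel, at -0.13 (adjusted p = 0.257), and of Bcat1, the cytosolic transaminase, at -0.06 (adjusted p = 0.824). Without FF replicate 3 Pccb passed, with an adjusted p of 0.0390.

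Transporters of branched-chain amino acids at the cell surface showed no common direction. Of 6 measured, 0 passed the limma threshold, 3 differences were positive and 3 negative, and 1 was higher and 1 lower at an unadjusted p under 0.05. Slc43a1, a facilitated transporter of large neutral amino acids, differed by 0.41 ± 0.14 (SE; adjusted p = 0.164). Slc7a5, the light chain of the main exchanger of these amino acids, differed by -0.14 (adjusted p = 0.271).

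Genes of biotin use were compared because methylcrotonyl-CoA carboxylase needs biotin. Of 5 measured of 6 listed, 2 rose and none fell. Slc5a6, the sodium-dependent transporter of biotin and other vitamins, was 8.91, 8.76, 8.76, 8.53 and 8.43 in FF replicates 1 to 5 and 8.28, 8.13, 8.16, 8.08 and 8.02 in VV replicates 1 to 5. Its groups did not overlap, and it rose by 0.55 ± 0.09 (SE), 1.46-fold, with a limma adjusted p of 0.0352. That call was lost with any of FF replicates 1 and 2 and VV replicates 2 to 5 left out, at 0.0555 to 0.0951. Acacb, a biotin-dependent acetyl-CoA carboxylase at mitochondria, rose by 1.34 ± 0.18 (SE; limma adjusted p = 0.0219), a call lost with any of FF replicates 1 and 2 and VV replicate 2 left out (0.0632 to 0.0806). The list median was 0.55, and Hlcs, which attaches biotin to the carboxylases, differed by 0.06 (adjusted p = 0.615), and was picked for that role with its value known.

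The pyruvate and oxoglutarate dehydrogenase complexes are built like BCKDH, and the pyruvate complex is switched by its own kinases and phosphatases. Of 13 measured genes 2 rose and none fell, 11 were higher at an unadjusted p under 0.05, and the median difference was 0.42. With 1 mouse left out, 0 to 6 of the 13 passed. Ogdh, the E1 subunit of the oxoglutarate complex, rose by 0.39 ± 0.06 (SE; limma adjusted p = 0.0267), a call lost with any of FF replicates 1, 2 and 5 and VV replicates 2, 4 and 5 left out (0.0563 to 0.0806). Pdp2, a pyruvate dehydrogenase phosphatase, rose by 0.47 (adjusted p = 0.0475), a call kept in 1 of the 10 fits with a mouse left out, that without FF replicate 3 (0.0461), and at 0.0507 to 0.11 in the others. A phosphatase passed there and Ppm1k did not, and the difference between them was not tested. Another pyruvate dehydrogenase phosphatase, Pdp1, differed by -0.05 (limma adjusted p = 0.807). Of the pyruvate dehydrogenase kinases, Pdk1, Pdk2, Pdk4 and Pdk3 differed by 0.42, 0.40, 0.94 and -0.16. None of these kinases passed in limma (adjusted p = 0.0711, 0.0502, 0.0617 and 0.475). Pdp1 and the kinases were picked for their roles with their values known. Among regulators of the pathway, Ppargc1a, a coactivator of mitochondrial genes, rose by 0.99 (limma adjusted p = 0.0219), a call lost with any of FF replicate 5 and VV replicates 2 and 5 left out (0.0507 to 0.0718). Klf15, a transcription factor known to control branched-chain catabolism, differed by 0.32 (adjusted p = 0.297) and was picked for that role with its value known.

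**Figure D5:**
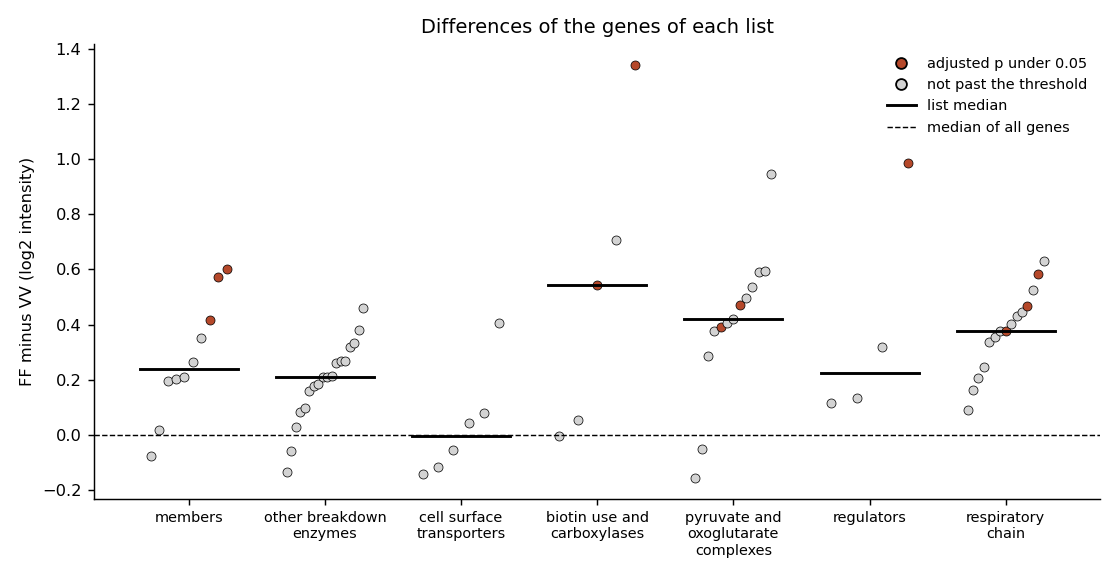
FF minus VV difference of every measured gene of 7 lists, sorted within each list; coloured points passed an adjusted p of 0.05, black lines are list medians and the dashed line is the median of all genes. The medians are 0.24 for the 10 branched-chain genes, 0.21 for the other breakdown enzymes, -0.00 for the transporters and 0.42 for the pyruvate and oxoglutarate complexes.

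Some other cell and mitochondrial markers also differed between the groups. All 15 measured respiratory chain subunits of 18 listed had positive differences and were higher at an unadjusted p under 0.05, with 3 of them past the threshold in limma (Uqcrc1, Uqcrfs1 and Sdha, by 0.58, 0.47 and 0.38; lost with any mouse but FF replicate 3 or VV replicate 1 left out, at 0.0675 to 0.107), with a score from -0.06 to 0.38 in FF and from -0.32 to -0.05 in VV. Of 8 brown and beige adipocyte markers 5 rose, among them Ucp1, the uncoupling protein of heat production, by 3.96 (limma adjusted p = 0.00553). All 8 were higher at an unadjusted p under 0.05, and their score ran from 0.42 to 1.50 in FF and from -1.35 to -0.59 in VV. Of 9 measured leukocyte markers of 10, 1 fell, Ptprc, by 0.68 on the log2 scale (limma adjusted p = 0.0422); all 9 differences were negative and 8 of the 9 were lower at an unadjusted p under 0.05. Their score ran from -0.46 to -0.03 in FF and from 0.09 to 0.49 in VV. With 1 mouse left out, 0 to 9 of the respiratory chain subunits, 1 to 5 of the brown and beige markers and 0 to 2 of the leukocyte markers passed. The part of these in the differences of the branched-chain genes was not tested. Of 9 measured mature white adipocyte markers of 10, 0 passed the limma threshold, 3 were higher and 1 lower at an unadjusted p under 0.05, and their score ran from -0.04 to 0.07 in FF and from -0.06 to 0.05 in VV. None of the 5 endothelial or the 5 measured progenitor and fibroblast markers passed; 0 and 2 of them were lower at an unadjusted p under 0.05, and their scores overlapped, at -0.16 to 0.20 and -0.35 to 0.14 in FF and -0.15 to 0.10 and -0.06 to 0.30 in VV.

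Slc25a44 varied most among the 10 genes, with an SD of 0.35 over the 10 mice, and the genes nearest to its profile lay outside the pathway. By the root mean square difference between values centred over the 10 mice, the nearest of 19658 genes were Pmm1, a phosphomannomutase, at 0.098, Ppif, the cyclophilin of the mitochondrial permeability pore, at 0.099, and Hk2, a hexokinase, at 0.099 log2 units. The median over all genes was 0.35. Their FF minus VV differences were 0.50, 0.54 and 0.68, none past the threshold in limma (adjusted p = 0.0687, 0.0547 and 0.0545). Among the other branched-chain genes Bckdk was nearest to Slc25a44, at rank 81, followed by Bckdha at rank 127, and Ppm1k was the farthest. Few of the 19658 genes compared were branched-chain genes, so the nearest genes say little about the pathway. The measure also depends on how much a gene varied. Bckdhb, with an SD of 0.09 over the 10 mice, lay at 0.33, near the median over all genes.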

How the data were processed

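The 10 arrays gave 35557 probe sets, deposited as log2 intensities. The authors summarised and normalised them with RMA, per the submitters' processing notes; neither version nor genome build is given in the sources used here. Probe sets valued on all arrays (25689) and naming 1 gene (20777) were kept, with the highest mean for genes with several, leaving 19659 genes; 20699 probe sets were named through a RefSeq gene table on GRCm38.p6. The labels give each array its own animal number. Their number limits precision.

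The genotypes were compared by limma 3.58.1 with statmod 1.5.0, run in R 4.3.3: lmFit and eBayes without covariates, two-sided, p-values adjusted over all genes by the method of Benjamini and Hochberg. Plots used Python 3.11.15 and matplotlib 3.10.9. The procedure was tested on simulated data with independent noise for each gene and mouse. Of 100 genes shifted by 0.5 it recovered 77, and of 100 shifted by 1 it recovered 95, with 10 false among 182 calls. The simulation held no effects shared by the genes of a mouse, so it does not cover the dependence on single mice seen here. The members, lists and tests were chosen with earlier results of these data known. Named are all members, each pathway list's genes past the threshold or else its 2 with the smallest p, the 3 genes nearest in profile to the most variable member, and genes stated as chosen after their values were seen. Adipoq, Ucp1 and Ptprc are named as examples from the marker lists, also with earlier results of these data known. Alternatives were leaving out mice singly and in pairs, a block for the replicate number, quantile normalisation, centring, a filter on dim genes, the mean of probe sets, an intensity trend and an adjusted p of 0.10.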

Additional observations from a re-analysis of the deposited data

Results flagged for a closer look

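Bckdk in FF replicate 3 stood apart from the other FF mice, at 9.81 against 10.07 in the nearest of them, a gap of 0.736 of the range of the group. Of 46 groups examined this was 1, and chance alone gives about 1 in 20. Without that mouse the difference of Bckdk was 0.48 in place of 0.42.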

How the results depend on the processing

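The 10 genes gave 190 values under the alternatives, of which 157 kept their direction and their side of the threshold, 26 lost the threshold, 1 gained it and 6 changed sign. Only Slc25a44, Bckdk and Bckdha, called with all mice, could lose the threshold, so the pooled count makes their calls look more stable than they were. With 1 mouse left out, Slc25a44 lost it in 9 of 10 fits, Bckdk in 7 and Bckdha in 1. The values that changed sign were of Bckdhb, which ran from -0.0146 to 0.0439 with 1 mouse left out and was -0.0002 after quantile normalisation, and of Ppm1k, which ran from -0.1484 to 0.0364 with 1 mouse left out and was 0.0534 without FF replicate 1 and VV replicate 1 together. With 1 mouse left out, the genes called were 7 to 379 of all genes, 0 to 3 of the 10 members and 0 to 19 of 61 other pathway genes (148, 3 and 8 with all mice), the median of the members was 0.19 to 0.29, and the shift of Bckdk minus Ppm1k was 0.36 to 0.61. Without FF replicate 1 and VV replicate 1 the calls were 28, 1 and 1 and that shift was 0.32, and without VV replicates 1 and 2 the calls were 8, 0 and 0. With a block for the replicate number the calls were 5, 0 and 0 in limma (2836, 7 and 39 at an unadjusted p under 0.05). The deviations of same-numbered mice from their group means correlated above 0.1 across genes in 1 of 5 pairs. Of the FF mice, 1 correlated best with its own number. Correlations over 5 pairs cannot decide whether equal numbers marked paired mice. Calls among all genes were 95 after quantile normalisation, 338 with arrays centred on their medians, 355 without dim genes and 704 at an adjusted p of 0.10. Calls among the other pathway genes were 16 with centred arrays, 19 without dim genes, 13 with an intensity trend and 24 at an adjusted p of 0.10. Except where fewer mice or genes or a looser threshold entered by construction, the cause was not tested. Without VV replicate 2, where no member was called, 6 had an unadjusted p under 0.05. Each gene was read by 1 probe set, and sequence differences between the alleles under its probes were not analysed here.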
